A study of Caenorhabditis elegans with 4 samples.

Results

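Binding regions of the nuclear hormone receptor NHR-2 on chromosome V were described from peak lists of Caenorhabditis elegans embryos. All peaks that the deposited lists place on chromosome V were taken, with no further choice. They numbered 304 in the combined list of the series, beside 1468 on chromosomes I to IV and 527 on X. The lists of the ChIP libraries, which also hold weak peaks, placed 4740 of 29379 peaks on V in replicate 1 and 3866 of 24151 in replicate 2. The study mapped NHR-2 by chromatin immunoprecipitation and sequencing with an anti-GFP antibody, in 2 ChIP libraries beside 2 libraries of input DNA kept from the lysates. Every library came from mixed male and hermaphrodite embryos of strain OP99, grown at 20 °C, in an unc119(ed3) background. The strain carries wgIs99, which holds nhr-2::TY1 EGFP FLAG and unc119, was made by bombardment and was outcrossed 3 times. The sources used here give neither the place of the insertion nor the number of copies, nor whether the replicates came from separate cultures. No list was used for the input libraries, and there was no untagged control among the samples. Coordinates are on WormBase WS220.

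Receptors of this kind are transcription factors with zinc fingers, many of which bind small lipophilic ligands. The family is much expanded in nematodes, and NHR-2 is a member expressed in the embryo. The worm's chromosomes have no single centromere. Their autosomes have a centre rich in conserved and widely expressed genes and with little recombination, between arms that recombine more and hold more repeats and young gene families. Chromosome V, the longest, is known for large families of chemoreceptor and nuclear receptor genes. Here the arms and the centre were set by length alone. V was measured up to its last combined peak at 20852419. The left arm is the first 25% (up to 5213104), the centre the middle 50% (5213105 to 15639314) and the right arm the last 25%. Peaks carry a number within their list, and number 1 is the strongest. The strongest peaks of a replicate are those numbered up to the length of the combined list.

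NHR-2 peaks on V were denser in the centre than in the arms, and this contrast came mainly from the right arm. The combined list held 188 peaks in the centre (18.0 per Mb), 73 in the left arm (14.0 per Mb) and 43 in the right arm (8.25 per Mb). The centre thus held 61.8% of the V peaks (95% interval 56.1 to 67.3%), beside 56.7% of the combined peaks of all chromosomes. Among the strongest V peaks, the centre held 187 of 309 (60.5%) in replicate 1 and 173 of 303 (57.1%) in replicate 2, a mean of 58.8% ± 2.4 (SD, n = 2). Chromosomes I to IV gave 58.1% in the combined list, 59.5% in replicate 1 and 55.8% in replicate 2. The central share of V thus lay near that of chromosomes I to IV pooled. On X the centre held less, with 49.7% in the combined list, 51.1% in replicate 1 and 47.4% in replicate 2.

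The density of the centre was 1.62 times that of both arms together in the combined list (1.28 to 2.06). Replicate 1 gave 1.53 for this ratio (1.21 to 1.94) and replicate 2 gave 1.33 (1.05 to 1.68). Against the right arm alone the centre was 2.19 times as dense in the combined list (1.56 to 3.12), 1.99 times in replicate 1 and 1.84 times in replicate 2. Against the left arm alone the ratio was 1.29 in the combined list (0.98 to 1.71), 1.25 in replicate 1 (0.95 to 1.65) and 1.04 in replicate 2 (0.80 to 1.37). All 3 intervals for the left arm include 1. The intervals are exact binomial ones. They hold for counting error alone, as if each peak stood for itself, whereas many peaks here are grouped. An exact sign-flip permutation test of the ratio over n = 2 libraries cannot give a two-sided p under 0.5, so no test over samples was made.

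**Figure D1:**
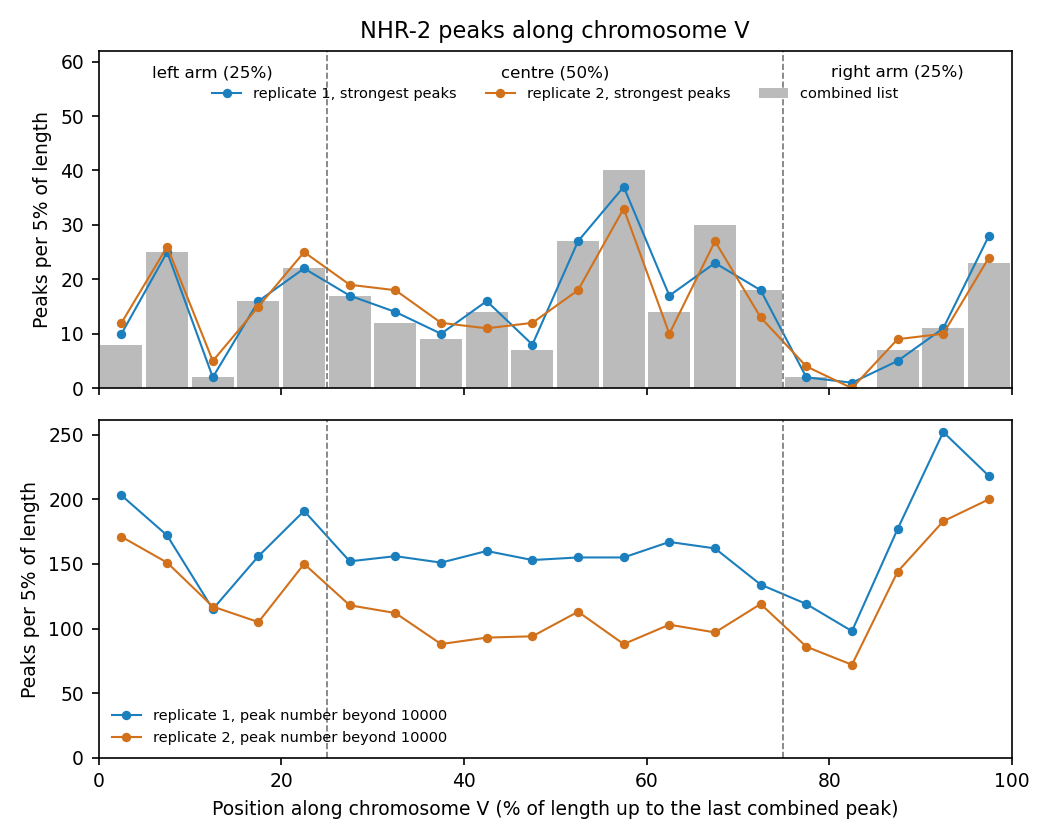
Number of NHR-2 peaks in each 5% of chromosome V, from its left end to its last combined peak. Upper panel: combined list (grey bars) and strongest peaks of each replicate (lines). Lower panel: replicate peaks numbered beyond 10000. Dashed lines bound the arms, and the highest grey bar holds 40 peaks and the lowest 0.

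Density varied widely within the arms. Along V, in 20 bins of 5% of its length (1.04 Mb), the combined list held 0 to 40 peaks with a median of 14. Replicate 1 held 1 to 37 strong peaks per bin and replicate 2 held 0 to 33. The fullest bin, 11468831 to 12511451, was the same in all 3 lists. In the left arm, 35 combined peaks lay before position 2127168 (16.5 per Mb) and 38 between 3182226 and 5213104 (18.7 per Mb). Between these pieces lay 1.06 Mb with no combined peak. Both flanking pieces were therefore close to the mean density of the centre, 18.0 per Mb. At the far right end, the last 1 Mb before the last combined peak held 23 combined peaks, 28 strong peaks of replicate 1 and 24 of replicate 2. The stretch from 17921371 to 19852419 held 18 combined peaks (9.32 per Mb). The start of the right arm, from 15639315 to 16356144, held 2 peaks in each of the 3 lists (2.79 per Mb).

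The left arm was denser than the right by 1.70 times in the combined list (1.15 to 2.54), by 1.60 times in replicate 1 (1.09 to 2.35) and by 1.77 times in replicate 2 (1.22 to 2.58). This order of the arms did not hold firmly under other choices. With each cluster of peaks counted once the ratio was 1.5 (0.89 to 2.57). With arms of 20% of the length the ratio was 1.24 (0.81 to 1.92), and with the chromosome cut into 3 equal parts it was 1.22 (0.90 to 1.65). All 3 of these intervals include 1.

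The lean toward the centre was seen over all strongest peaks of each replicate, but not clearly in each class of them. It was not seen among the weakest peaks. Among V peaks numbered beyond 10000, the centre held 1545 of 3265 (47.3%, 45.6 to 49.0%) in replicate 1 and 1025 of 2414 (42.5%, 40.5 to 44.5%) in replicate 2. Both intervals lie under 50%, so weak V peaks were more frequent in the arms. Between numbers 5000 and 10000 the centre held 53.0% in replicate 1 (n = 774) and 41.0% in replicate 2 (n = 776), and the replicates lay on opposite sides of 50%. From the length of the combined list to number 5000 the shares were 56.9% (n = 392) and 51.2% (n = 373) in that order of replicates. Among the first 500 peaks of the whole genome, 66 peaks of replicate 1 lay on V with 63.6% in the centre (50.9 to 75.1%), and 65 peaks of replicate 2 with 53.8% (41.0 to 66.3%). For numbers 500 to 1000 replicate 1 gave 50% (37.0 to 63.0%, n = 62). Replicate 2 gave 64.1% (51.1 to 75.7%, n = 64). From number 1000 to the length of the combined list the share was 63.0% (55.5 to 70.0%, n = 181) in replicate 1. It was 55.7% (48.0 to 63.3%, n = 174) in replicate 2. In replicate 1 the interval for numbers 500 to 1000 includes 50%. In replicate 2 those for the first 500 and from number 1000 onward include 50%. At these small numbers the intervals are wide, and no order among the 3 strongest classes can be read from them. Chromosomes I to IV together gave 64.3% in replicate 1 and 61.2% in replicate 2 among the first 500 peaks. Beyond number 10000 they gave 45.5% and 41.9%, so their weak peaks also lay more often in the arms.

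**Figure D2:**
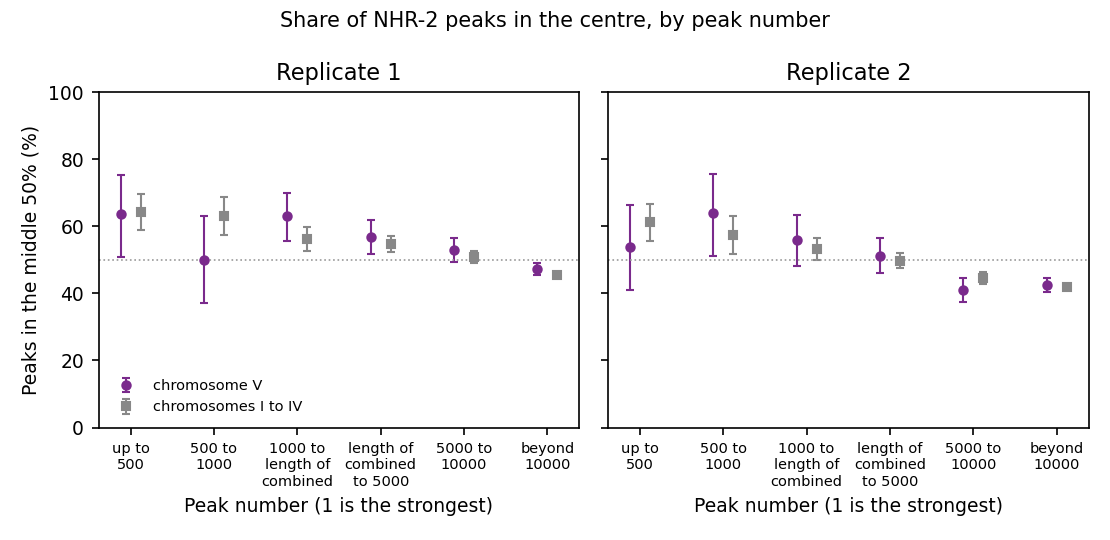
Share of peaks in the middle 50% of the length, by class of peak number, for chromosome V (circles) and chromosomes I to IV together (squares), with exact 95% binomial intervals. The dotted line marks 50%, and the weakest class lies under it in both replicates.

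Peaks on V were fewer per Mb than on chromosomes I to IV in the centre and in the arms alike. V made up 20.8% of the nuclear length and 13.2% of the combined list. In the centre V held 18.0 combined peaks per Mb, against 27.7 per Mb in the centres of I to IV, a ratio of 0.65 (0.55 to 0.76). In the arms V held 11.1 per Mb, against 20.0 per Mb in the arms of I to IV, a ratio of 0.56 (0.45 to 0.68). The strongest peaks gave ratios of 0.66 for the centre and 0.63 for the arms in replicate 1, and of 0.61 and 0.58 in replicate 2. All of these ratios lie under 1. The centre of V was the sparsest of the 6 nuclear chromosomes in the combined list, with the centre of IV next at 18.8 per Mb. The right arm of V was likewise the sparsest of the 12 chromosome arms, with the right arm of IV next at 12.4 per Mb. The left arm of V, at 14.0 per Mb, was denser than that arm of IV and the left arm of II (13.6 per Mb). It was sparser than every other arm of the other chromosomes. No test of the difference between chromosomes was made. V also held fewer weak peaks than its length would give, with 16.8% of the nuclear peaks beyond number 10000 in replicate 1 and 17.1% in replicate 2.

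**Figure D3:**
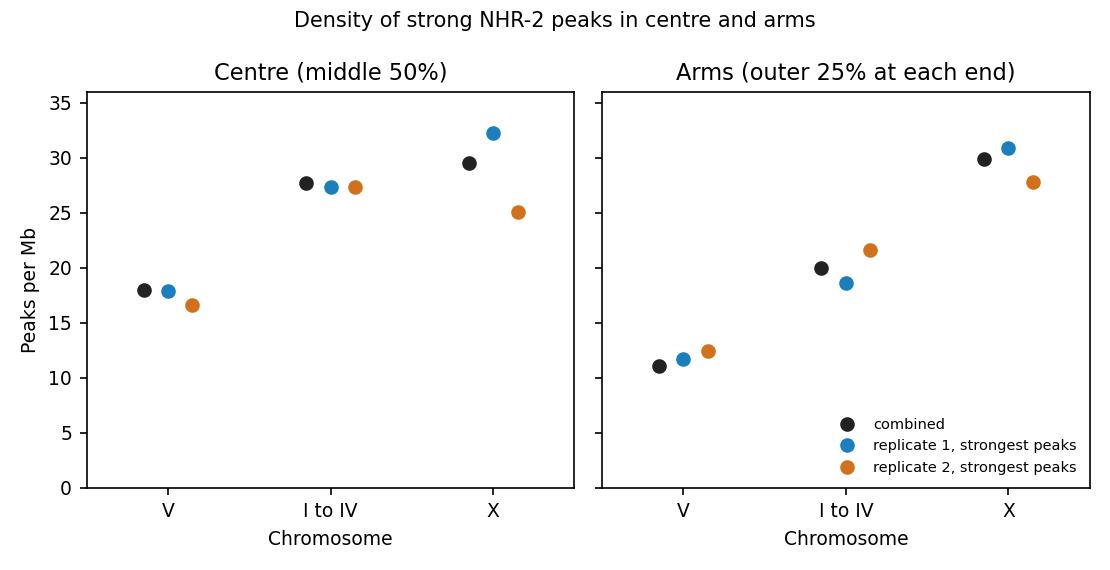
Peaks per Mb in the centre and the arms of chromosome V, of chromosomes I to IV together and of X, for the combined list and the strongest peaks of each replicate. Chromosome V lies lowest in both panels for all 3 lists, at 11.1 to 18.0 peaks per Mb.

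The very first peaks of V lay mostly in its centre, but this did not extend to the first 500. All 10 combined V peaks with the lowest numbers were central, and of the 14 V peaks among the first 100 of the combined list 12 were central. The central share of all combined V peaks was 61.8%. The central share of the first 100 peaks over all chromosomes is not given here, so this lean cannot be called particular to V. Among the first 500 of the combined list, 38 of 66 V peaks were central, 15 lay in the left arm and 13 in the right arm. Of the first 100 peaks of each replicate, 14 lay on V in replicate 1 and 13 in replicate 2, and 12 of these were central in each. The strongest V peak, number 10 of the combined list, spanned 6684546 to 6685051 and was number 16 in replicate 1 and number 7 in replicate 2. Number 11, at 7741913 to 7742304, was also number 11 in both replicates. Number 17 spanned 14501106 to 14501514 and was numbered 33 in replicate 1 and 13 in replicate 2. Number 19 lay at 8796918 to 8797287 (numbers 25 and 18) and number 27 at 11673909 to 11674296 (numbers 24 and 44), with replicate 1 given before replicate 2 in each pair. All 5 were thus among the first 50 peaks of both replicates.

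The next 5 were number 37 at 7978870 to 7979338, number 43 at 14433569 to 14433943, number 56 at 13787486 to 13787885, number 59 at 11952995 to 11953418 and number 66 at 11660503 to 11660897. In replicate 1 these were numbered 63, 67, 59, 56 and 99, and in replicate 2 they were numbered 24, 33, 56, 58 and 46. The interval of number 43 is listed again in the combined list as number 1955, with the same replicate matches. Both entries are counted among the 304 V peaks. The strongest peaks of the arms came later. In the left arm they were number 74 at 4525552 to 4525946, number 99 at 1244028 to 1244366 and number 125 at 1574691 to 1574943. In the right arm they were number 113 at 19522695 to 19523141, number 143 at 18589542 to 18589902 and number 212 at 20778328 to 20778628. The first of the right arm was number 72 in replicate 1 and number 220 in replicate 2. The first of the left arm was number 50 in replicate 1 and number 154 in replicate 2, so both arm leaders ranked higher in replicate 1.

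Over all combined V peaks, these leaders included, peak strength differed little between centre and arms. The median number of the combined peaks was 1189 in the centre (quartiles 654 and 1757), 921 in the left arm (558 and 1624) and 1217 in the right arm (420.5 and 1845). The stronger 50% of the combined list held 47.3% of the central peaks (40.0 to 54.7%), 56.2% of those in the left arm (44.1 to 67.8%) and 48.8% of those in the right arm (33.3 to 64.5%). These intervals overlap. The score sat at its ceiling of 3.54 for 225 of the 304 V peaks (74.0%), beside 75.6% of the combined peaks of all chromosomes. By region, 74.5% of central, 79.5% of left and 62.8% of right peaks were at the ceiling, again with overlapping intervals.

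Width followed strength. Of the 304 peaks, 220 had the usual width of 450 bp and the rest were 114 to 506 bp wide. Among the 50 strongest V peaks, 46 were narrower than this and 2 wider, with a median of 295.5 bp. Of those ranked 51 to 100 on V, 27 were narrower and 23 had the usual width, with a median of 241 bp. Among the 104 weakest, 101 had the usual width and 3 were narrower. Narrow peaks made up 46 of 188 in the centre, 20 of 73 in the left arm and 16 of 43 in the right arm.

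Nearly all V members of the combined list had a peak in each replicate list. In replicate 1 a peak overlapped 302 of the 304 (99.3%, 97.6 to 99.9%), beside 99.8% of the combined peaks of all chromosomes, and in replicate 2 a peak overlapped 300 (98.7%, 96.7 to 99.6%), beside 99.1%. The combined list belongs to the same libraries, so this is no independent repeat. The exceptions were chosen after their values were seen. Replicate 1 had no peak at 1580392 to 1580841 and at 15464960 to 15465409, where replicate 2 had numbers 890 and 1118. Replicate 2 had none at 3182226 to 3182675, 6679768 to 6680217, 11083677 to 11084126 and 14366093 to 14366542, where replicate 1 had numbers 1597, 1060, 1234 and 1278. These 6 peaks all lie late in the combined list, at numbers 1866 to 2292. Matches beyond number 5000 were found for 8 V peaks in replicate 1 (2.22% over all chromosomes) and for 17 in replicate 2 (6.35% over all chromosomes).

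Setting the libraries against each other gave a lower figure. Of the 309 strongest V peaks of replicate 1, 192 (62.1%, 56.5 to 67.6%) overlapped one of the strongest of replicate 2, beside 65.0% over all chromosomes. Of the 303 of replicate 2, 194 (64.0%, 58.3 to 69.4%) overlapped one of the strongest of replicate 1, beside 66.0% over all chromosomes. Both V shares lie near that background. By region, the replicate 1 shares were 59.4% in the centre, 72.0% in the left arm and 57.4% in the right arm. In replicate 2 they were 65.3%, 65.1% and 57.4% in that order of regions, and the intervals of the regions overlap. Against the full list of the other library, 281 of the 309 peaks of replicate 1 (90.9%) found an overlap, beside 93.1% over all chromosomes. For replicate 2 it was 281 of the 303 (92.7%), beside 94.7% over all chromosomes. The strong peaks with no such overlap numbered 28 in replicate 1, the lowest numbered 1060, and 22 in replicate 2, the lowest numbered 890.

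Part of the V peaks came in dense groups, though most clusters were single peaks, and some long stretches of V held no combined peak. With a spacing of up to 10 kb between centres allowed within a cluster, the 304 peaks formed 173 clusters, of which 124 were single peaks and 14 held at least 5. These 14 held 93 peaks, 30.6% of the V peaks (25.5 to 36.1%), beside 20.1% over all chromosomes and 21.0% on chromosomes I to IV (19.0 to 23.2%). Chromosome II, with 27.3% in 15 such clusters, lies inside the interval of V. V had 0.67 such clusters per Mb, against 0.76 on I to IV. In bins of 500 kb the variance of the peak count was 4.66 times its mean on V, and 1.76 to 3.45 times on the other 5 nuclear chromosomes. V had 3 empty bins of 500 kb among 41, and the other chromosomes had 0. Of the 14 large clusters, 10 lay in the centre, 3 in the left arm and 1 in the right arm. They held 33.0% of the central peaks, 32.9% of those in the left arm and 16.3% of those in the right arm. The share of peaks with another peak at most 2 kb away was 36.5% on V and 28.5 to 35.3% on each of the other chromosomes.

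The cluster with most peaks lay in the centre at 11947311 to 11964479 and held 12 combined peaks in 17169 bp. Their centres stood 272 to 3416.5 bp apart, with a median of 1272 bp. Its strongest member, number 59 at 11952995 to 11953418, was number 56 in replicate 1 and number 58 in replicate 2. The next were number 301 at 11960692 to 11960984 (numbers 282 and 329 in replicates 1 and 2), number 489 at 11948371 to 11948560 (380 and 635), number 702 at 11951959 to 11952408 (695 and 1076), number 740 at 11958609 to 11959058 (1344 and 529) and number 986 at 11947311 to 11947760 (1105 and 1206). The other 6 were numbered 1173 to 2229. All 12 were matched in both replicates, although 2 overlapping members shared 1 replicate peak, and the last member was number 820 in replicate 1 and number 9367 in replicate 2. Of its members, 3 were among the first 500 of the combined list and 6 among the first 1000.

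The second cluster lay in the left arm at 1570004 to 1580841, with 10 combined peaks in 10838 bp that did not overlap. Here several members were of like strength. Numbers 125 and 129 stood side by side at 1574691 to 1574943 and 1573424 to 1573828, and were numbered 139 and 159 in replicate 1 and 142 and 115 in replicate 2. Number 236 lay at 1578653 to 1578913 (334 and 181), number 442 at 1576696 to 1576907 (398 and 454) and number 538 at 1577348 to 1577670 (608 and 476). Number 781 lay at 1572547 to 1572996 (562 and 1640), number 921 at 1570004 to 1570453 (840 and 1141) and number 1150 at 1570689 to 1571138 (1207 and 1334). The weakest were number 1895 at 1575653 to 1576102 (5151 and 1108) and number 2072 at 1580392 to 1580841, which had no replicate 1 peak. These weakest members ranked higher in replicate 2.

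Of the 4 clusters of 7 peaks, the one with the strongest member lay in the centre at 11656372 to 11674296. It held number 66 at 11660503 to 11660897 and number 27 at 11673909 to 11674296, both among the 10 strongest of V. Between and beside them lay number 833 at 11663426 to 11663875 (numbers 585 and 1365 in replicates 1 and 2), number 1514 at 11657154 to 11657603 (1784 and 1712), number 1634 at 11664802 to 11665251 (2549 and 1486), number 1737 at 11656372 to 11656821 (1424 and 2149) and number 1791 at 11658733 to 11659182 (2602 and 1360). The last peak, number 27, stood 9076 bp from its neighbour and belongs to the cluster only at a spacing of nearly 10 kb.

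**Figure D4:**
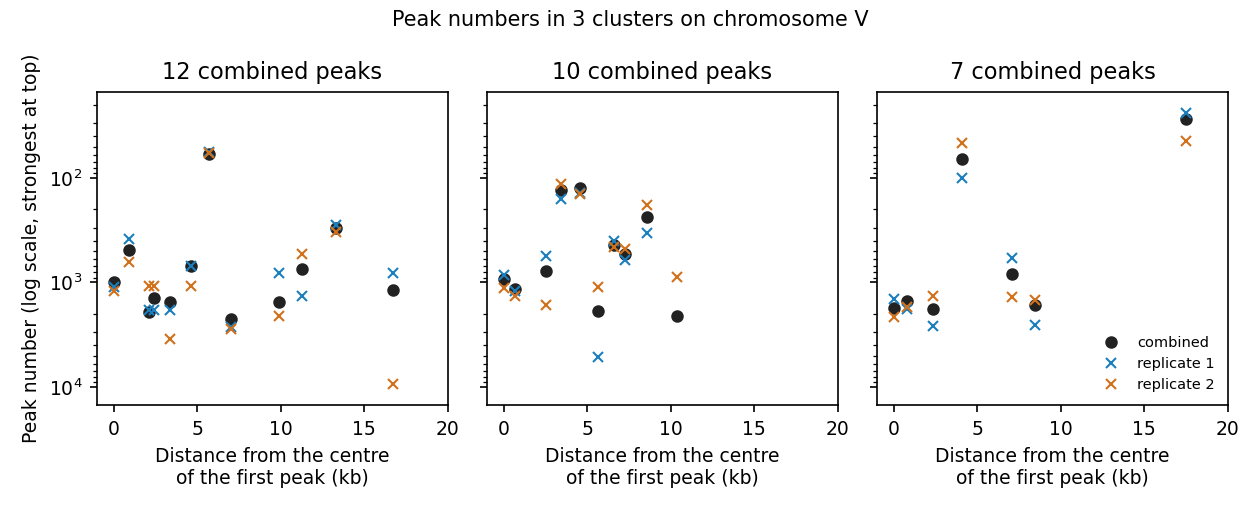
Peak number of each combined peak (circles) and of its best overlapping replicate peak (crosses) against the distance from the first peak, in the cluster of 12 peaks, the cluster of 10 and the cluster of 7 with the strongest member. The log axis has the strongest peaks at the top. The cluster of 12 has 1 member above number 100, the cluster of 10 has none, and the cluster of 7 has 2.

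The other clusters of 7 lay at 1228047 to 1250179 and 4486542 to 4508181 in the left arm and at 20745576 to 20763699 near the right end, with leading numbers 99, 427 and 239. Clusters of 6 lay at 11698472 to 11711499, 14425106 to 14437602 and 14498292 to 14508725, led by numbers 331, 43 and 17. The cluster led by number 43 holds that same interval again as number 1955, so its count of 6 includes the repeat. Clusters of 5 lay at 6224349 to 6234313, 6679768 to 6685928, 7739841 to 7746256, 11338740 to 11345280 and 14363228 to 14372132, led by numbers 77, 10, 11, 475 and 247. All clusters of 5 or 6 were central, and the 3 strongest V peaks each lay in one of them. The densest bin of 500 kb, 11500001 to 12000000, took in 3 clusters of at least 5 peaks and held 31 combined peaks, 26 strong peaks of replicate 1 and 25 of replicate 2. The next bins, 1500001 to 2000000 and 11000001 to 11500000, held 14 combined peaks each.

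The longest stretch of V with no combined peak spanned 16356145 to 17921370, or 1.57 Mb, 7.51% of V, and lay in the right arm. It was bounded by number 238 at 16355919 to 16356144 (numbers 220 and 275 in replicates 1 and 2) and by number 2036 at 17921371 to 17921820 (3123 and 1776). The longest such stretch on any other chromosome was 0.58 Mb, on IV. Replicate peaks did occur inside it, 188 in replicate 1 and 168 in replicate 2, but few were strong. Replicate 1 had 1 strong peak, number 1622 at 16742184 to 16742583, and replicate 2 had 2, number 1858 at 16537874 to 16538343 and number 1982 at 16598386 to 16598855. Number 1622 had no overlap in replicate 2. The best overlaps of numbers 1858 and 1982 in replicate 1 were numbers 16065 and 3750.

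The next peaks in replicate 1 were number 2326 at 16401817 to 16402216, number 2391 at 16965610 to 16966009, number 3482 at 16420196 to 16420595 and number 3519 at 17315713 to 17316112. Their overlaps in replicate 2 were numbers 4366, 17325, 8209 and 3196. In replicate 2 they were number 2547 at 16391146 to 16391615, number 2584 at 16740062 to 16740531 and number 2624 at 16598598 to 16599067. The first of these had no overlap in replicate 1, and the others overlapped numbers 11890 and 3750. Inside the stretch 26.6% of replicate 1 peaks (20.4 to 33.5%) overlapped a replicate 2 peak, against 38.0% outside, and 31.0% of replicate 2 peaks (24.1 to 38.5%) overlapped a replicate 1 peak, against 47.0% outside. The density of all called peaks inside was 0.51 times that of the rest of V in replicate 1 and 0.56 times in replicate 2, and its part in these shares was not tested. The stretch was chosen for holding no combined peak, and combined peaks are nearly all matched in both lists, so a lower overlap inside was in part fixed by that choice.

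Replicate peaks numbered beyond the length of the combined list were also fewer in the stretch. In replicate 1 the density inside the stretch relative to the rest of V was 0.22 (0.09 to 0.47) for peaks from the length of the combined list to number 5000, 0.41 (0.27 to 0.62) for numbers 5000 to 10000 and 0.62 (0.52 to 0.73) beyond 10000. In replicate 2 it was 0.52 (0.29 to 0.86), 0.55 (0.38 to 0.78) and 0.64 (0.52 to 0.77) for the same classes. Every one of these 6 intervals lies under 1, and differences between the classes were not tested. The ratio for the strongest class, 0.04 in replicate 1 and 0.08 in replicate 2, follows from the choice of a stretch with no combined peak. That choice also lowers the other ratios in part, since some combined V peaks are matched by replicate peaks of these weaker classes. Matches beyond number 5000 were found for 8 combined V peaks in replicate 1 (2.22% over all chromosomes) and 17 in replicate 2 (6.35% over all chromosomes). Matches from the length of the combined list to number 5000 also occurred and bear on the first of these classes. They are not counted here, so the size of this effect is not known. Called peaks covered 4.64% of the stretch in replicate 1 and 4.83% in replicate 2, against 8.94% and 8.41% of the rest of V. Among the 20 bins of V, the one from 16681936 to 17724556 had the fewest peaks beyond number 10000 in both replicates, 98 and 72, where the medians were 156 and 112.5.

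**Figure D5:**
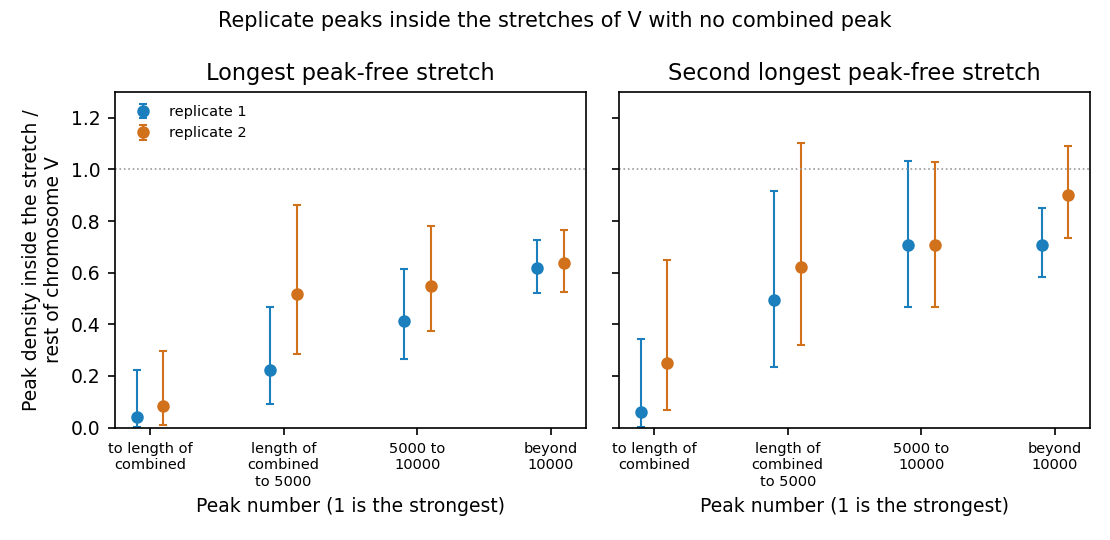
Density of replicate peaks inside the longest and the second longest stretch of V with no combined peak, divided by the density on the rest of V, by class of peak number, with exact 95% binomial intervals. The dotted line marks equal density. The low ratio of the strongest class is fixed by the choice of the stretches, which also lowers the ratios of the weaker classes in part. Beyond number 10000 the ratios in the longest stretch are 0.62 in replicate 1 and 0.64 in replicate 2.

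The second longest stretch, 2127168 to 3182225 in the left arm, spanned 1.06 Mb, 5.06% of V. It held 157 peaks of replicate 1 and 154 of replicate 2, of which 1 and 4 were strong. The longest run here without a strong peak measured 1.04 Mb in replicate 1 but only 0.55 Mb in replicate 2. Its strongest replicate 1 peak was number 2157 at 2139939 to 2140338, matched by number 16668 in replicate 2. Its strongest replicate 2 peak was number 1426 at 2211805 to 2212274, matched by number 8048 in replicate 1. Beyond number 10000 its density relative to the rest of V was 0.71 (0.58 to 0.85) in replicate 1, while replicate 2 gave 0.90 (0.74 to 1.09). The replicate 2 interval includes 1, and the difference between the replicates was not tested. For numbers 5000 to 10000 the ratio was 0.71 in both replicates, with intervals of 0.47 to 1.03 that include 1. The overlap of its peaks between the lists was 39.5% in replicate 1 and 41.6% in replicate 2, against 37.4% and 46.5% on the rest of V.

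The following stretches were 18087198 to 18589541 (0.50 Mb), 3704461 to 4169499 (0.47 Mb) and 7237502 to 7686266 (0.45 Mb). None of these 3 held a strong peak of either replicate. In all, V had 8 stretches longer than 400 kb, 6 of them in the arms, which made up 25.5% of its length. Chromosome I had 2 such stretches, IV had 1, and II, III and X had 0. The 2 longest bear on the contrast of centre and arms. With their length taken off the arms, the centre was 1.21 times as dense as the arms (0.96 to 1.54), and the arms of V reached 0.74 times the density of the arms of I to IV (0.60 to 0.91). This comparison was chosen after the stretches had been seen, and removing empty length can only raise the density of the arms.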

How the data were processed

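ChIP DNA was sequenced from 2 libraries and input DNA from 2. Each authors' list gives peaks with a score and a peak number. Per the file headers, the deposited coordinates are on WS220, and the source column names the SPP caller with the irreproducible discovery rate. The score is the authors' own deposited value, its scale is not stated, and it was used within a list only. Peak number 1 was read as the strongest, since low numbers went with high scores (Spearman's rho −1.00 for each replicate and −0.75 for the combined list, in which 1737 of 2299 peaks share the top score). Not given in the sources used here are the aligner, versions, thresholds, depths and how the replicates were combined.

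Peaks were assigned by centre to the first 25%, middle 50% and last 25% of each chromosome, measured to its last combined peak. Overlaps needed 1 bp, and the lowest-numbered overlapping peak was the match. Clusters joined centres within 10 kb. Shares and density ratios carry exact (Clopper-Pearson) 95% binomial intervals; no significance test was made. Regions named were the 10 strongest V peaks, the 3 strongest per region, clusters of at least 5 peaks (the 3 largest in full), the 5 longest empty stretches with the 5 strongest replicate peaks of the longest, and the 3 densest bins of 500 kb. For the second longest stretch only the strongest replicate peak of each list is given, an addition made after seeing the data. Members, regions and measures were chosen with earlier results of these data known. No WS220 genome or annotation was used, so peaks are not assigned to genes and no sequence is shown. The counting steps were tested on simulated data and matched bedtools 2.31.1. The scripts ran on Python 3.11.15 with scipy 1.17.1, pandas 2.3.3, numpy 2.4.6 and matplotlib 3.10.9.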

Additional observations from a re-analysis of the deposited data

How the results depend on the processing

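The central share of V peaks, the ratios of centre to arms and of left to right arm, and the ratios of V to I to IV stayed inside their main intervals with overlapping peaks merged, each cluster counted once, the stronger 50% of the list, either replicate alone and other chromosome ends. So did the ratios, though not run for the share, with other arm boundaries. The left to right ratio lost its distance from 1 with each cluster counted once, at 1.5 (0.89 to 2.57), as with other boundaries. Without the 2 longest empty stretches, chosen after seeing the data, the ratio of centre to arms was 1.21 and that of V arms to the arms of I to IV was 0.74. Without the densest 5% bin, also chosen then, the ratio of centre to arms was 1.42. The longest empty stretch measured 1.21 to 1.32 Mb with 1 replicate left out, since single strong peaks then fall inside it, and 1.60 Mb in the stronger 50%. Clusters of at least 5 peaks numbered 11 at a spacing of 5 kb, 15 at 20 kb and 13 with either replicate left out. With a reciprocal overlap of 50%, replicate 1 overlapped 95.1% and replicate 2 83.6% of the combined V peaks, and the strongest peaks of replicates 1 and 2 overlapped each other for 47.9% and 48.2%. In the stronger 50% the first 2 shares were 100% each and the last 2 were 74.1% and 75.0%, where fewer weak peaks enter by construction. No paired analysis was possible because no peak list stands for an input library. Read depth is unknown, so a region with no peak cannot be called unbound.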

Other observations

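Across the 20 bins of V, the counts of strong peaks of replicates 1 and 2 had a Pearson's r of 0.91 and a Spearman's rho of 0.87. The counts of peaks beyond number 10000 had values of 0.83 and 0.69. Within a library, strong and weak counts were less alike, with r of 0.33 and rho of 0.39 in replicate 1 and r of 0.23 and rho of 0.25 in replicate 2. These describe bins of 1 chromosome, which share library and sequence, and carry no test. Of the V peaks beyond number 10000, 12.3% in replicate 1 and 15.4% in replicate 2 overlapped a lower-numbered peak of the same list.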
